A study of Mus musculus with 4 samples.

Results

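The genes described here code for receptors of interleukins, colony-stimulating factors, chemokines and tumour necrosis factor (TNF) ligands, together with the Toll-like receptors, which sense microbial molecules. They were taken by gene symbol alone, and the receptors of the IL-17 family and the IL-1 receptor antagonist were left out. Of 13102 genes in the deposited tables, 39 matched. RefSeq lists 91 mouse symbols of this form, and the other 52, among them Il1r2, Il7r, Il20ra, Csf3r, Cxcr2 and Tlr9, were not analysed here. The 39 genes fall into 12 TNF receptors, 7 receptors of the common gamma, IL-4, IL-3 and CSF group, 5 of the IL-1 family, 5 of the gp130 group, 4 Toll-like receptors, 3 of the IL-10 and IL-20 group and 3 chemokine receptors.

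RNA was sequenced from 4 cultures of primary epidermal keratinocytes, the cells that build the outer layer of the skin, isolated from newborn C57BL/6 mice and grown for 48 h. One culture was wild type (WT) and untreated. The other cultures were given interleukin-17A (IL-17A), a cytokine of inflamed skin, at 100 ng/mL for 8 h, and came from WT mice, from mice lacking Il17rc (Il17rc KO) or from mice lacking Il17rd (Il17rd KO). The libraries are called untreated, IL-17A WT, Il17rc KO, Il17rd KO below, and both KO libraries were treated. Il17rc codes for a subunit of the IL-17A receptor, and Il17rd for a related receptor. The labels give neither the type of knockout allele nor the number of mice per culture, and no untreated KO library was analysed here. A difference between a KO library and the untreated library therefore mixes genotype and treatment, and these cannot be told apart.

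Every group has 1 library, so values cannot be checked in replicates and p-values were not computed. A gene was called higher or lower where its counts, scaled for library size by TMM (trimmed mean of M-values), differed by 2-fold or more and the exact 95% binomial interval of the ratio excluded 1. This was applied to all 12934 genes with a mean CPM (counts scaled to a common library size) of at least 1, and all 39 receptor genes passed that filter. Intervals in the text cover counting error only and not the spread between cultures. Total counts lay between 19711866 and 19904695 per library. The targeted genes were checked first: Il17rc had 2729, 1152, 439 and 1718 counts, and Il17rd had 252, 265, 150 and 5, in the order untreated, IL-17A WT, Il17rc KO, Il17rd KO. The library labelled Il17rc KO thus still held Il17rc reads, and the labels do not say which part of the gene was deleted. All 9 keratinocyte markers were measured, with Krt5 at 301441 to 390468 counts. Krt1, a keratin of differentiating cells, had 48645, 756, 12388 and 22536 counts in the same order. The X-linked RNA Xist ranged from 2420 to 8513 counts, and the Y-linked Ddx3y from 2 counts in the Il17rd KO library to 749 in the Il17rc KO library, so the libraries differed in the sex of the cells. In cultures of this kind, fewer cells of a type and less RNA per cell cannot be told apart.

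Cytokine receptors carry no enzyme of their own as a rule. Receptors of the gp130, common gamma, IL-10 and CSF groups bind JAK kinases and act through STAT proteins, with the exception of Csf1r, a receptor tyrosine kinase. IL-1 family and Toll-like receptors share an intracellular domain that recruits adaptors, MyD88 for most of them, and leads to NF-kB, and TNF receptors recruit TRAF proteins or death-domain adaptors. Many ligands need a specific chain and a shared chain together, and some family members are decoys that bind ligand without signalling. In the epidermis keratinocytes use such receptors to respond to cytokines from immune cells and from each other.

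With IL-17A in WT cells, receptor genes were called in both directions, and the TNF receptor family held 3 in each. Of the 39 genes, 6 were called higher in the IL-17A WT library than in the untreated one, and 10 lower. Those counts are 15.4% and 25.6% of the receptor genes, beside 8.97% and 10.7% of all genes tested. The median log2 ratio was -0.32 for the receptor genes and 0.00 for all genes. The higher genes were Tnfrsf23, Tlr3, Il18r1, Il2rg, Tnfrsf22 and Tnfrsf12a. The lower genes were Tnfrsf11b, Il20rb, Il15ra, Il6ra, Tnfrsf4, Tnfrsf18, Il6st, Il13ra1, Tlr5 and Il22ra1.

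**Figure D1:**
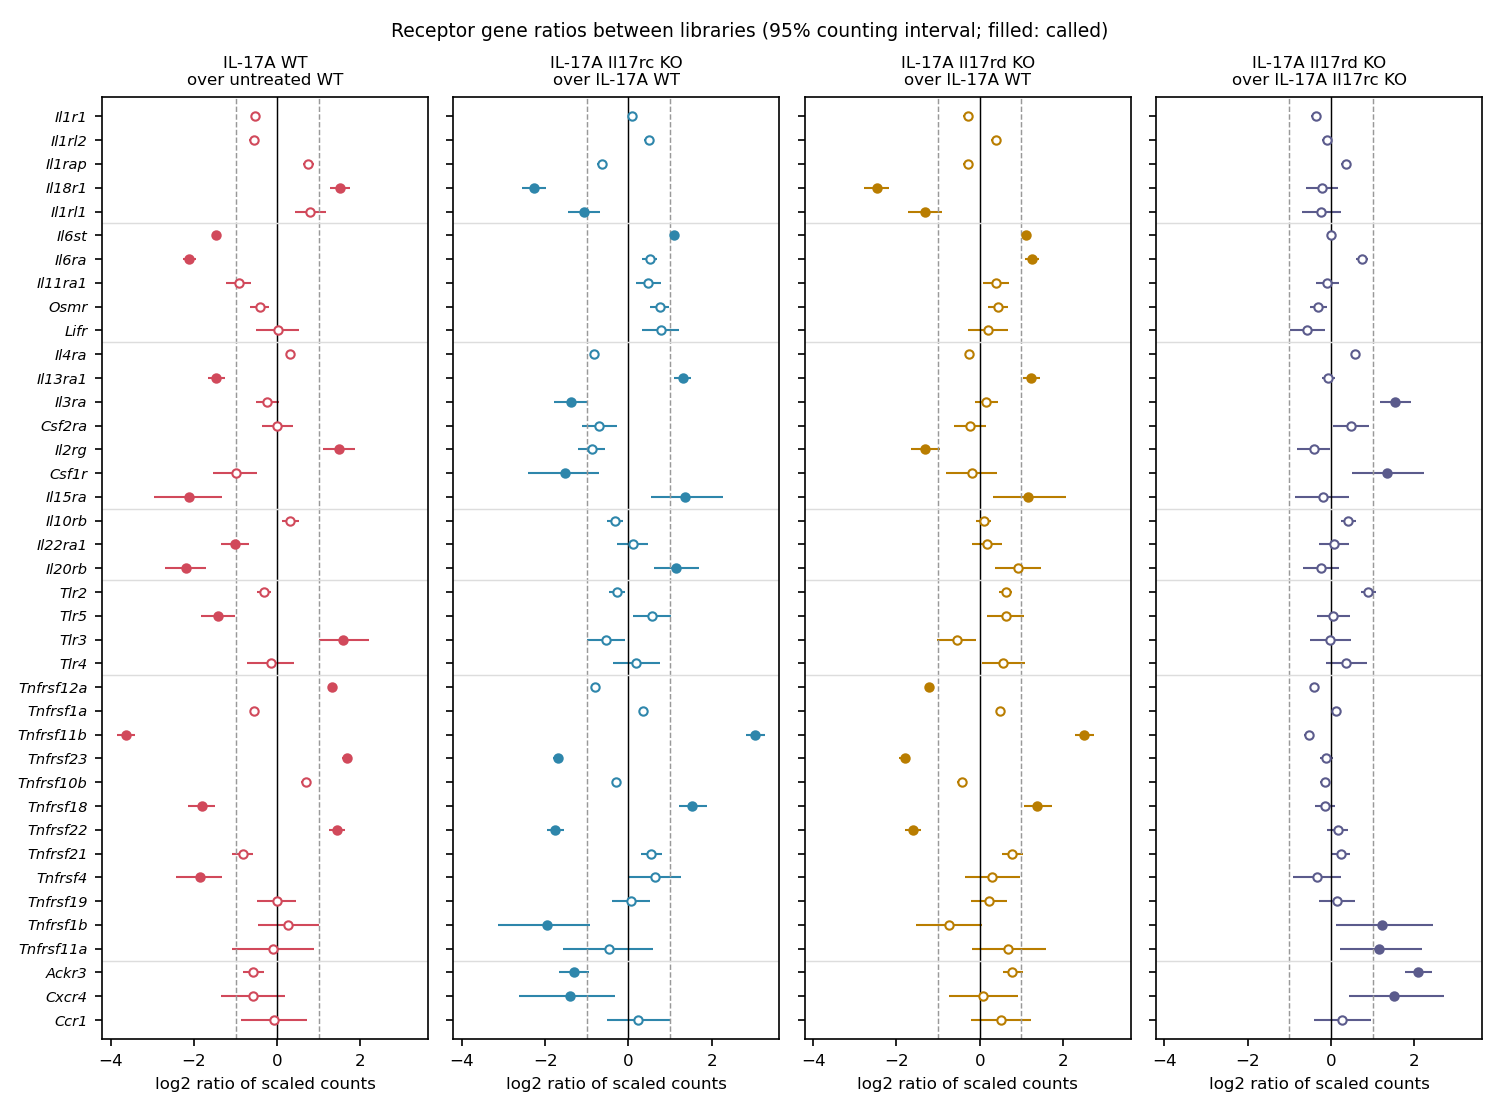
Log2 ratio of TMM-scaled counts for each of the 39 receptor genes (rows, grouped by family) in 4 comparisons (panels); lines are exact 95% counting intervals, filled points were called and dashed lines mark 2-fold. Tnfrsf11b lies furthest to the left in the first panel, 12.4-fold lower, and furthest to the right in the next panels against IL-17A WT, while the 6 filled points of the last panel all lie on the right.

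The promoter sequences of 5 genes are shown because they belong to genes with different patterns in these libraries. Tnfrsf12a, Tnfrsf23 and Tlr3 were higher with IL-17A, and Il6st and Il20rb were lower. They were chosen after their values were seen. Each runs 5′ to 3′ on the gene's strand from 250 bases before the transcription start to 50 after it, from RefSeq on GRCm38.p6. Capitals mark a match to an NF-kB motif or to the C/EBP motif TTGCNNAA, on either strand.
Tnfrsf12a, chr17:23677400-23677699, minus strand: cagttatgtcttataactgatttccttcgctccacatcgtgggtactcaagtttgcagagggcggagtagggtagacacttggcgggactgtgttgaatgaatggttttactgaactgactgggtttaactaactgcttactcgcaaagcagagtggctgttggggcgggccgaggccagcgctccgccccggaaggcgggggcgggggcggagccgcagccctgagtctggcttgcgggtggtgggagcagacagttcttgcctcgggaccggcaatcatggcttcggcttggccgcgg
Tnfrsf23, chr7:143685826-143686125, minus strand: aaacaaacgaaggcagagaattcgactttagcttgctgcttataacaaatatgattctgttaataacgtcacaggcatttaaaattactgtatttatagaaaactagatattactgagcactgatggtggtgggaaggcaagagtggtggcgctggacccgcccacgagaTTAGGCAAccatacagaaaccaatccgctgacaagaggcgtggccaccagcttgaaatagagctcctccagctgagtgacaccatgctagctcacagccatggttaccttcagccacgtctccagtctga
Tlr3, chr8:45410331-45410630, minus strand: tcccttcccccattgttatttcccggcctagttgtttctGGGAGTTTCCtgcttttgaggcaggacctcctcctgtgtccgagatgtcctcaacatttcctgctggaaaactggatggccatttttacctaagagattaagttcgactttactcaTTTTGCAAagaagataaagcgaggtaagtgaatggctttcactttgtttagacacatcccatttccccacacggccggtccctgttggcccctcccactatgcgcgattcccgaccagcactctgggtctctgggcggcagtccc
Il6st, chr13:112463820-112464119, plus strand: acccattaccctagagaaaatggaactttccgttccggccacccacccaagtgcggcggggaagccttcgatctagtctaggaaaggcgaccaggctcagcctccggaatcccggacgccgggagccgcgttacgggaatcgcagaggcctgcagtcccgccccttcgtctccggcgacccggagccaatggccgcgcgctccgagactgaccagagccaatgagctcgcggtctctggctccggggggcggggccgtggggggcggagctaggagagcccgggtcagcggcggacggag
Il20rb, chr9:100486424-100486723, minus strand: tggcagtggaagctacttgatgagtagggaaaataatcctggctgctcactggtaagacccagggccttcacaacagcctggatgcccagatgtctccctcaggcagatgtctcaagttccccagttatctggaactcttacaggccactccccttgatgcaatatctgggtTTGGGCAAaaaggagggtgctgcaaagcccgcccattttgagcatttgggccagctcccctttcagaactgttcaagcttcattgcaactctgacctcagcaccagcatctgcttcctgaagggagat
The Tlr3 window held the NF-kB letters GGGAGTTTCC 211 bases before the start and the C/EBP letters TTTTGCAA 95 bases before it. Single C/EBP matches stood 80 bases before the start in Tnfrsf23 and 78 bases before it in Il20rb. The Tnfrsf12a and Il6st windows held no match to these motifs, nor to AP-1 (TGANTCA) or STAT (TTCNNNGAA) letters. Of the 39 genes, 33 had a promoter in the RefSeq table. C/EBP letters were in 8 of the 33, or 24.2%, beside 8.0% of 9516 promoters of the deposited genes and 10.8% of 27025 promoters in all. NF-kB letters were in 5 of 33 (15.2%) beside 10.2% and 8.18%, STAT letters in 4 of 33 (12.1%) beside 6.64% and 8.47%, and AP-1 letters in 2 of 33 (6.06%) beside 5.07% and 7.93%. Among genes higher with IL-17A, 2 of the 5 with a promoter held C/EBP letters, and among genes lower with it, 1 of 9. These are matches of letters and not binding sites, and the first start was used for the 7 genes with several.

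Levels differed widely between the receptor genes. As the authors' deposited FPKM, a level scaled for gene length and library size, the median over the 39 genes of the mean level was 3.03, beside 6.61 for all genes. Tnfrsf12a, which codes for Fn14, the receptor of TWEAK, had the highest mean at 156 FPKM. It was followed by Tnfrsf1a at 44.0, Il6st at 29.7, Tnfrsf11b at 23.9 and Il4ra at 19.0. A mean above 10 FPKM was seen for 9 genes and a mean below 1 for 11, with Tnfrsf11a lowest at 0.178. In raw reads, 9 genes had fewer than 50 counts in at least 1 library, and the lowest count was 10.

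**Figure D2:**
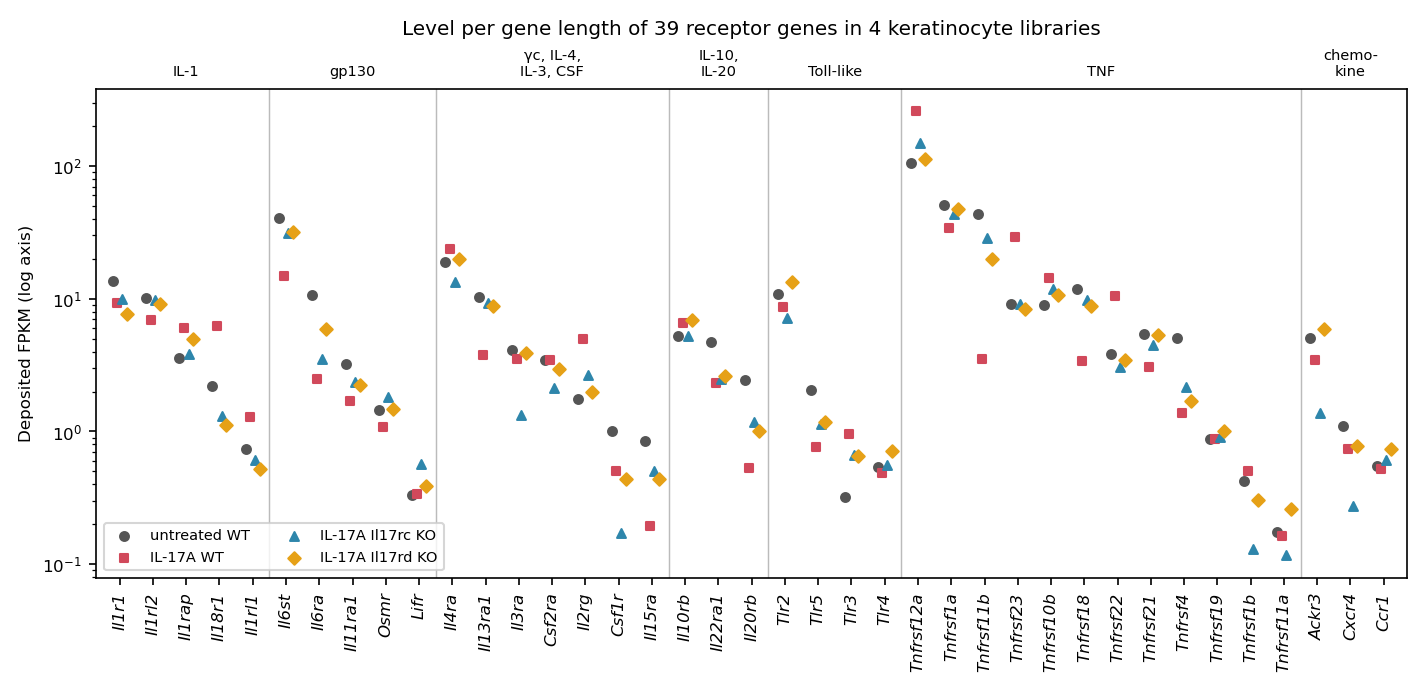
Deposited FPKM (log axis) of the 39 receptor genes in the 4 libraries, 1 point per library, ordered by family and by mean level within it. Tnfrsf12a stands highest in all 4 libraries, and the square of the IL-17A WT library stands apart from the other 3 points for genes such as Tnfrsf11b, Il6st, Tnfrsf22 and Tnfrsf23.

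Among the TNF receptors, decoys moved in opposite directions with IL-17A. Tnfrsf11b (osteoprotegerin, GRCm38 chr15:54250619-54278484, minus strand) is a secreted decoy for RANKL. It stood at 122 CPM in the untreated library, 9.86 in IL-17A WT, 81.5 in Il17rc KO and 56.3 in Il17rd KO. The IL-17A WT library was far below the others, 12.4-fold lower than untreated (interval 10.7 to 14.4). Set against IL-17A WT, the Il17rc KO library was 8.26-fold higher (7.11 to 9.64) and the Il17rd KO library 5.71-fold higher (4.90 to 6.69). The Il17rd KO level remained 2.17-fold below untreated (2.02 to 2.33), a difference that was also called.

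Tnfrsf22 and Tnfrsf23 code for mouse TRAIL receptors that lack a death domain and act as decoys. They are neighbours on chr7 (143634806 to 143649661 and 143665809 to 143685872, minus strand), 16.1 kb apart, and their transcripts are 91.0% identical over 2174 aligned bases. Tnfrsf23 measured 36.3, 116, 36.0 and 33.3 CPM, in the order untreated, IL-17A WT, Il17rc KO, Il17rd KO. Tnfrsf22 measured 16.3, 44.1, 13.0 and 14.5 CPM in that order. Both were high in IL-17A WT alone, 3.20-fold (2.94 to 3.49) and 2.71-fold (2.38 to 3.09) over untreated. In the KO libraries they lay 3.04-fold to 3.49-fold below IL-17A WT. Tnfrsf10b, the mouse TRAIL receptor with a death domain, was 1.61-fold higher with IL-17A (1.48 to 1.75), short of the 2-fold size, and part of its sequence is shared with a pseudogene.

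Tnfrsf12a (chr17:23675445-23677468, minus strand) reached 251 CPM in IL-17A WT against 101 in untreated, 144 in Il17rc KO and 108 in Il17rd KO. The treated WT level was 2.48-fold that of untreated cells (2.35 to 2.62). Below IL-17A WT, the Il17rd KO library was 2.32-fold lower (2.21 to 2.44) and was called, while the Il17rc KO library was 1.74-fold lower (1.67 to 1.83) and was not. Between the KO libraries the ratio was 1.33 (1.26 to 1.41), which was not called, so the unequal calls alone do not show that the knockouts differ.

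The costimulatory receptors Tnfrsf18 (GITR) and Tnfrsf4 (OX40) lie 9.55 kb apart on chr4 (156026164 to 156028895 and 156013843 to 156016612, plus strand). Tnfrsf18 was at 18.2 CPM in untreated, 5.16 in IL-17A WT, 15.0 in Il17rc KO and 13.5 in Il17rd KO cells. Tnfrsf4 was at 6.89, 1.89, 2.94 and 2.34 CPM in that order. With IL-17A both were lower, 3.52-fold (2.81 to 4.43) and 3.64-fold (2.51 to 5.40). They parted in the knockouts: Tnfrsf18 was called higher than IL-17A WT in both KO libraries, at 2.90-fold and 2.61-fold. Tnfrsf4 was not called there, at 1.56-fold and 1.24-fold, and it was called 2.34-fold and 2.95-fold lower than untreated in the Il17rc KO and Il17rd KO libraries. An antisense gene overlaps 27.2% of the Tnfrsf18 exons, and no strand setting is given, so reads of that gene cannot be separated from its own.

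The remaining TNF receptors showed smaller differences with IL-17A. Tnfrsf1a, the main receptor of TNF, was 1.48-fold lower in IL-17A WT than untreated (1.39 to 1.57), at 88.7 against 131 CPM. Tnfrsf21 (death receptor 6) was 1.78-fold lower (1.5 to 2.11). For Tnfrsf19, a receptor of the hair follicle and epithelium, the ratio was 1.01 (0.731 to 1.39), with 80 and 81 counts.

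Summed over the 12 TNF receptors, FPKM was 244 in untreated, 361 in IL-17A WT, 263 in Il17rc KO and 219 in Il17rd KO cells. Tnfrsf12a alone made up 105, 260, 149 and 112 of those sums. The summed level therefore followed 1 gene.

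The gp130 group held the shared chain that was the most abundant cytokine receptor outside the TNF family. Il6st codes for gp130, the signalling chain for IL-6, IL-11, LIF and oncostatin M, and lies at chr13:112464070-112510086 on the plus strand. Its level was 453 CPM in untreated, 164 in IL-17A WT, 350 in Il17rc KO and 353 in Il17rd KO cells. The level with IL-17A was 2.77-fold lower (2.66 to 2.89). The knockouts were 2.14-fold (2.05 to 2.23) and 2.16-fold (2.07 to 2.25) above IL-17A WT, and their ratio to each other was 1.01 (0.975 to 1.04). Both KO libraries lay below untreated, by 1.29-fold and 1.28-fold.

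Il6ra (chr3:89864059-89913196, minus strand) codes for the IL-6 binding chain. It measured 92.4 CPM in untreated, 21.4 in IL-17A WT, 30.6 in Il17rc KO and 50.9 in Il17rd KO cells. With IL-17A it was 4.32-fold lower (3.88 to 4.81). The Il17rd KO library was 2.38-fold above IL-17A WT (2.12 to 2.67) and called, and the Il17rc KO library 1.43-fold above it (1.26 to 1.62) and not called. Il17rd KO was 1.67-fold above Il17rc KO (1.51 to 1.84), which falls short of the called size. The Il17rc KO level stayed 3.02-fold below untreated (2.76 to 3.32), so for this gene the libraries formed 4 separate levels whose counting intervals did not overlap.

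The other chains of the group were not called in any of the 6 comparisons. Osmr, the oncostatin M receptor chain, stood at 17.7, 13.2, 22.2 and 17.9 CPM in the order untreated, IL-17A WT, Il17rc KO, Il17rd KO. Lifr, the LIF receptor chain, stood at 3.44, 3.48, 5.93 and 3.99 CPM in that order. Il11ra1, the IL-11 binding chain, was 1.90-fold lower with IL-17A (1.55 to 2.33), just short of the size called. Its value is uncertain, since annotated copies elsewhere in the genome match it. Gm13305 does so at up to 98.6% identity over 99% of the Il11ra1 transcript, and Il11ra2 at up to 100% over 41%. Summed FPKM of the 5 genes was 56.4, 20.3, 39.8 and 41.7, so the treated WT library was lowest.

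**Figure D3:**
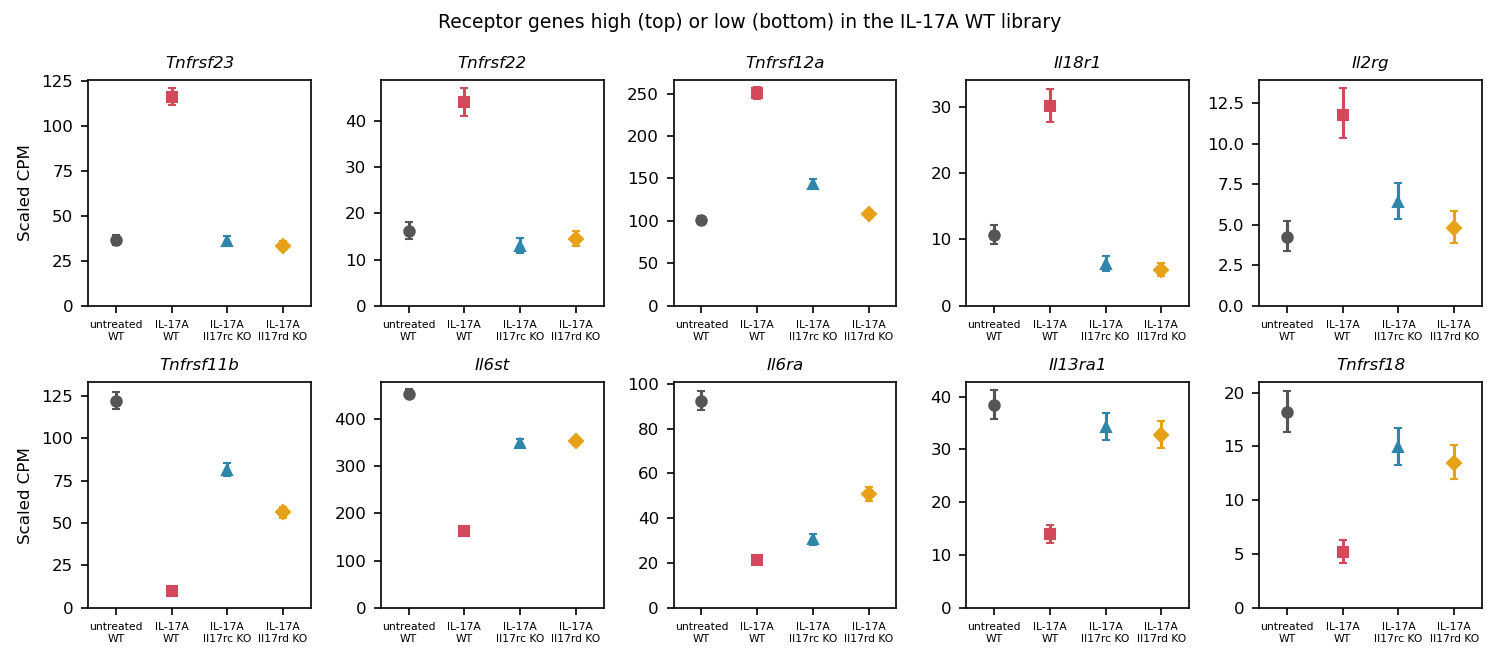
TMM-scaled CPM of 10 receptor genes in each library, with exact 95% Poisson intervals; each panel has its own axis from 0, and each point is 1 library. In the top row the IL-17A WT point is the highest of the 4 and in the bottom row the lowest; for Tnfrsf11b it is 9.86 CPM against 56.3 to 122 in the other libraries.

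The IL-1 family receptors split by gene within 1 cluster on chr1. Il1r1 (40225080 to 40317257), Il1rl2 (40324610 to 40367562), Il1rl1 (40429570 to 40465415) and Il18r1 (40465552 to 40500854) follow each other on the plus strand, and only 0.136 kb separates the last pair. Il18r1, the IL-18 binding chain, measured 10.6 CPM in untreated, 30.1 in IL-17A WT, 6.28 in Il17rc KO and 5.40 in Il17rd KO cells. It was 2.83-fold higher with IL-17A (2.41 to 3.33). Both knockouts were below IL-17A WT, by 4.79-fold (3.95 to 5.85) and 5.57-fold (4.54 to 6.88), and below untreated too, by 1.69-fold (1.35 to 2.13) and 1.97-fold (1.56 to 2.50), which was not called.

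Il1rl1 codes for ST2, the IL-33 receptor. Its counts were 98, 174, 85 and 74 in the order untreated, IL-17A WT, Il17rc KO, Il17rd KO. With IL-17A it was 1.74-fold higher (1.35 to 2.25), short of 2-fold, and it was called lower than IL-17A WT in the knockouts, at 2.10-fold and 2.47-fold. The shared accessory chain Il1rap lay in the same direction, 1.68-fold higher with IL-17A (1.53 to 1.83). The other pair of the cluster lay the other way. Il1r1, the signalling receptor of IL-1, was 1.44-fold lower (1.34 to 1.56), and Il1rl2, the receptor of IL-36, was 1.47-fold lower (1.35 to 1.59). Neither of these was called in any comparison. Summed FPKM of the 5 genes was 30.2, 29.8, 25.5 and 23.4 in the same order of libraries.

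In the common gamma, IL-4, IL-3 and CSF group, 1 of 7 genes was called higher with IL-17A and 2 lower, beside 8.97% and 10.7% of all genes. Il2rg, the common gamma chain of the receptors for IL-2, IL-4, IL-7, IL-9, IL-15 and IL-21, had 81, 231, 128 and 98 counts in the order untreated, IL-17A WT, Il17rc KO, Il17rd KO. The treated WT library was highest, 2.79-fold above untreated (2.16 to 3.64). Il17rd KO was 2.47-fold below it (1.95 to 3.17) and Il17rc KO 1.85-fold below it (1.48 to 2.31), of which only the former was called. Another annotated gene overlaps 30.5% of the Il2rg exons on the same strand, so its counts may hold reads of that gene.

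Il13ra1, which pairs with Il4ra to bind IL-4 and IL-13, measured 38.4, 13.9, 34.3 and 32.8 CPM in that order. It was 2.76-fold lower with IL-17A (2.40 to 3.19), and the knockouts were 2.47-fold and 2.36-fold above the treated WT library. Il15ra, the IL-15 binding chain, had 72, 17, 45 and 40 counts and was 4.32-fold lower with IL-17A (2.52 to 7.83). It was called higher than IL-17A WT in both knockouts, at 2.58-fold (1.45 to 4.81) and 2.24-fold (1.24 to 4.22). Il13ra1 and Il2rg lie on the X chromosome. The part of the sex difference in their values was not tested.

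Il4ra itself was 1.25-fold higher with IL-17A (1.18 to 1.32). It was 1.78-fold lower in Il17rc KO than in IL-17A WT (1.68 to 1.90), which was not called. For Csf2ra, the GM-CSF binding chain, none of the 6 comparisons gave a call, with counts of 122, 125, 79 and 112.

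Of the 3 receptors of the IL-10 and IL-20 group, 2 were called lower with IL-17A, beside 10.7% of all genes. Il20rb, a chain of the receptors for IL-19, IL-20 and IL-24, stood at 10.2 CPM in untreated, 2.25 in IL-17A WT, 4.99 in Il17rc KO and 4.24 in Il17rd KO cells. It was 4.55-fold lower with IL-17A (3.27 to 6.46). The Il17rc KO library was 2.22-fold above IL-17A WT (1.54 to 3.24), and the Il17rd KO library 1.88-fold (1.30 to 2.77). Both remained called lower than untreated, by 2.05-fold and 2.41-fold, and the former call was lost with library totals.

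Il22ra1, the IL-22 binding chain, was at 12.1, 5.98, 6.43 and 6.77 CPM, 2.02-fold lower with IL-17A (1.61 to 2.54). This gene lay just past the called size, and its call was lost when library totals were used without TMM factors. The 3 treated libraries were close together, and neither knockout was called against IL-17A WT. Il10rb, a chain shared by the receptors for IL-10 and IL-22, was not called, at 1.25-fold higher with IL-17A (1.09 to 1.43). Another annotated gene overlaps 14.9% of its exons.

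Of the 4 Toll-like receptors, 1 was called higher and 1 lower with IL-17A, beside 8.97% and 10.7% of all genes. Tlr3, which senses double-stranded RNA, had 32, 98, 69 and 70 counts in the order untreated, IL-17A WT, Il17rc KO, Il17rd KO. All 3 treated libraries were called higher than untreated, at 3.0-fold (1.995 to 4.62), 2.06-fold (1.34 to 3.24) and 2.04-fold (1.33 to 3.21). These ratios share the untreated library and its 32 counts. None of them was called with a filter of 5 CPM or at a size of 3-fold. An antisense gene overlaps 7.32% of the Tlr3 exons. Tlr3 was the single receptor gene called higher than untreated in either KO library. Tlr5, the flagellin receptor, had 189, 72, 109 and 116 counts and was 2.68-fold lower with IL-17A (2.03 to 3.57). In the knockouts it lay between these levels and was not called against either.

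Tlr2, the receptor of bacterial lipoproteins and the most abundant of the 4 per length, measured 32.9, 26.3, 21.7 and 40.5 CPM. It was not called in any comparison. The Il17rd KO library was highest and the Il17rc KO library lowest. Tlr4, the lipopolysaccharide receptor, was not called either, with 58, 53, 62 and 82 counts.

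The comparison of each knockout with IL-17A WT gave more genes on the lower side for Il17rc than for Il17rd, but not with a filter of 5 CPM. In Il17rc KO, 6 of 39 genes were called higher and 9 lower, which is 15.4% and 23.1%, beside 6.22% and 4.84% of all genes. In Il17rd KO, 6 were called higher and 6 lower, 15.4% each way, beside 6.27% and 3.73% of all genes. With a filter of 5 CPM, 6 were lower in each knockout, since Csf1r, Cxcr4 and Tnfrsf1b left the test. Those genes had 17, 10 and 10 counts in Il17rc KO. At a size of 1.5-fold, 14 were lower in Il17rc KO and 6 in Il17rd KO, and at 3-fold 4 and 3 were. Shares of all genes were not computed with that filter or at those sizes. The median log2 ratios were 0.07 and 0.21, beside 0.04 and 0.01 for all genes. Of the 6 genes higher with IL-17A in WT cells, Il18r1, Tnfrsf22 and Tnfrsf23 were lower in both knockouts. Of the 10 lower with it, Tnfrsf11b, Tnfrsf18, Il6st, Il13ra1 and Il15ra were higher in both. These 3 comparisons share the IL-17A WT library, whose own deviation enters all of them, so the opposite signs are given as values and not as a result.

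Against the untreated library, 1 gene was higher and 8 were lower in Il17rc KO, 2.56% and 20.5% of the receptor genes, beside 7.27% and 7% of all genes. In Il17rd KO, 1 was higher and 4 were lower, 2.56% and 10.3%, beside 5.36% and 3.35%. These comparisons share the untreated library with that of IL-17A WT. Tnfrsf4, Il20rb and Csf1r were lower than untreated in both KO libraries.

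The direct comparison of the treated knockouts does not involve either WT library. Here 6 of 39 genes were called higher in Il17rd KO than in Il17rc KO and 0 lower, 15.4% and 0%, beside 2.75% and 1.49% of all genes. With a filter of 5 CPM 2 of them stayed called, and at a size of 3-fold 1 did. The 6 were Ackr3, Il3ra, Cxcr4, Csf1r, Tnfrsf1b and Tnfrsf11a. For each of them the Il17rc KO library was the lowest of the 4, and 5 of the 6 were also called lower in Il17rc KO than in IL-17A WT. The exception was Tnfrsf11a (RANK), with 20, 19, 14 and 32 counts, whose Il17rd KO library was 2.23-fold above Il17rc KO (1.16 to 4.53). Both comparisons share the Il17rc KO library, whose own deviation enters each of them. The shared calls and the lowest place of that library are therefore given as values and not as a result.

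Ackr3 (chr1:90203980-90216751, plus strand), a scavenging receptor of CXCL12, measured 17.1 CPM in untreated, 11.5 in IL-17A WT, 4.64 in Il17rc KO and 19.8 in Il17rd KO cells. It was 2.48-fold lower in Il17rc KO than in IL-17A WT (1.94 to 3.19) and 4.27-fold higher in Il17rd KO than in Il17rc KO (3.40 to 5.41). Cxcr4, the signalling receptor of CXCL12, had 38, 26, 10 and 29 counts and was 2.83-fold higher in Il17rd KO than in Il17rc KO, with a wide interval (1.34 to 6.51). Ccr1, a receptor of inflammatory CC chemokines, was called in none of the 6 comparisons, with 30, 29, 35 and 43 counts. Cxcl12, the common ligand of Ackr3 and Cxcr4, had 44, 99, 158 and 51 counts. It was highest in the library where both of these receptors were lowest.

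Il3ra, the IL-3 binding chain, had 236, 204, 80 and 238 counts, and was 2.61-fold lower in Il17rc KO than in IL-17A WT (2.01 to 3.43). Csf1r, the receptor of CSF1 and IL-34, had 94, 48, 17 and 44 counts. It was 2.89-fold lower in Il17rc KO than in IL-17A WT (1.63 to 5.37) and 5.78-fold lower than in untreated cells (3.43 to 10.4). With IL-17A in WT cells it fell just short of the size called, at 1.999-fold lower (1.40 to 2.89). Tnfrsf1b, the second TNF receptor, had 31, 38, 10 and 24 counts, 3.89-fold lower in Il17rc KO than in IL-17A WT (1.90 to 8.76). The 10 counts of Tnfrsf1b and of Cxcr4 are the lowest among the receptor genes. With a 99% interval in place of 95%, Tnfrsf1b and Tnfrsf11a were no longer called between the knockouts.

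**Figure D4:**
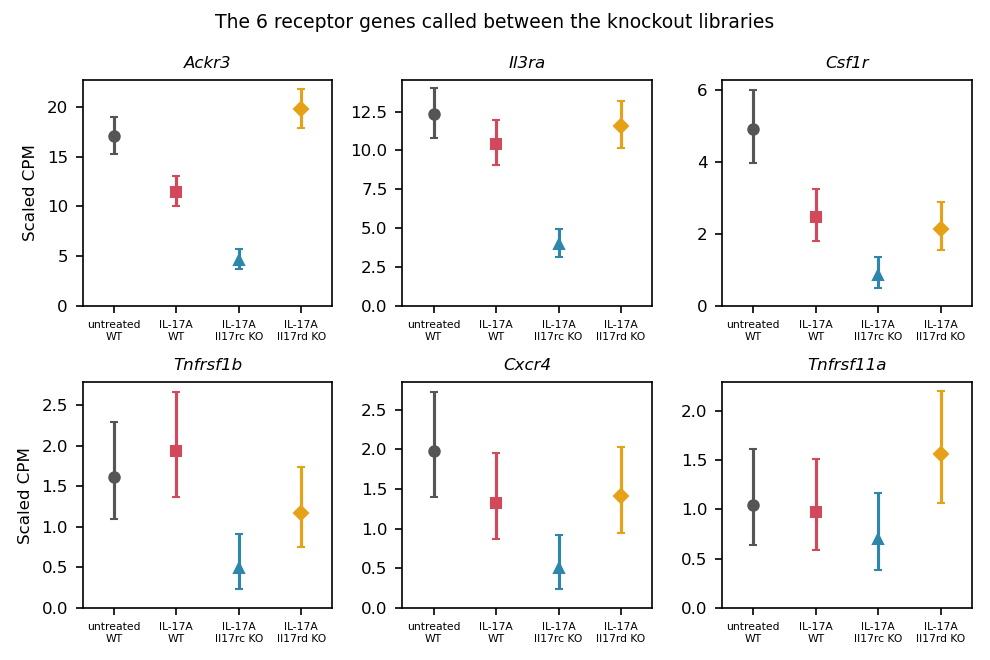
TMM-scaled CPM, with exact 95% Poisson intervals, of the 6 receptor genes called between the knockout libraries, 1 point per library, each panel with its own axis from 0. The Il17rc KO point is the lowest in every panel, and its interval overlaps that of Il17rd KO for Tnfrsf1b and Tnfrsf11a but not for Ackr3 (4.64 against 19.8 CPM), Il3ra, Csf1r and Cxcr4.

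Csf1r is also a marker of macrophages and Langerhans cells, and some of the other markers of that list were, like it, lowest in the Il17rc KO library. Of the list of 12, 5 were measured, summing to 83.5 CPM in untreated, 41.7 in IL-17A WT, 32.4 in Il17rc KO and 54.0 in Il17rd KO cells. Lyz2 had 796, 396, 67 and 348 counts in those libraries, and Laptm5 had 96, 26, 7 and 34. Both were lowest in Il17rc KO, as Csf1r was. Cd68, with 572, 340, 547 and 663 counts, and H2-Ab1, with 43, 6, 12 and 21, were lowest in IL-17A WT. The defining markers Ptprc, Cd207 and Adgre1 were not analysed here. The part of such cells in the values of Csf1r and of the other 5 genes was not tested. In addition, 15.1% of the Csf1r exons overlap Hmgxb3 on the opposite strand, which had between 1089 and 1252 counts.

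Markers of other cell types moved with the IL-17A comparison as well. The 8 measured fibroblast markers of 10 summed to 57.7 CPM in untreated, 8.89 in IL-17A WT, 33.1 in Il17rc KO and 44.8 in Il17rd KO cells, with Col1a1 at 247, 27, 128 and 233 counts. The 6 melanocyte markers summed to 2389, 1568, 2001 and 2166 CPM, and the 2 endothelial markers measured of 5 to 10.4, 17.6, 7.88 and 10.5. Of the remaining lists, 0 of 6 T cell markers, 1 of 5 mast cell markers (Kit) and 1 of 5 neutrophil markers (S100a8) were measured. S100a8, which keratinocytes of inflamed skin also express, had 75, 653, 269 and 2575 counts in the order untreated, IL-17A WT, Il17rc KO, Il17rd KO. Krt1 and Krt10, the differentiation keratins, were lowest in IL-17A WT, where Krt10 had 220 counts against 11590 in untreated, 2220 in Il17rc KO and 3635 in Il17rd KO cells. The part of cell composition and of differentiation in the receptor values was not tested.

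Receptors outside the symbol rule were taken from a list of 31, of which 17 were measured. With IL-17A in WT cells 3 were called higher and 1 lower, beside 8.97% and 10.7% of all genes. Il18rap, the signalling chain that joins Il18r1 to form the IL-18 receptor, had 128, 425, 42 and 52 counts in the order untreated, IL-17A WT, Il17rc KO, Il17rd KO. It was 3.25-fold higher with IL-17A (2.66 to 3.995), and 10.4-fold and 8.58-fold below IL-17A WT in Il17rc KO and Il17rd KO. Both chains of the IL-18 receptor thus stood highest in the same library. Ngfr and Relt, of the TNF receptor family, were 2.62-fold and 2.41-fold higher with IL-17A. Prlr, the prolactin receptor, had 33, 2, 28 and 24 counts, a ratio of 16.8 lower (4.31 to 145). Of the 5 interferon receptor chains, 0 were called with IL-17A in WT cells or in either knockout against IL-17A WT. Among all genes, 6.22% were higher and 4.84% lower in Il17rc KO, and 6.27% and 3.73% in Il17rd KO. With only 5 genes, 0 calls is not a result about these chains.

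Ligands were taken from a list of 74, of which 33 were measured. The receptor antagonists Il1rn and Il1f5 are in this list and are counted with the ligands. In the IL-17A WT library 14 were called higher than untreated and 7 lower, beside 8.97% and 10.7% of all genes, and their median log2 ratio was 0.62, against -0.32 for the receptors. Against IL-17A WT, 4 were higher and 12 lower in Il17rc KO, beside 6.22% and 4.84% of all genes. In Il17rd KO 6 were higher and 11 lower, beside 6.27% and 3.73%. Il18 had 441, 27, 245 and 178 counts, 16.7-fold lower with IL-17A (11.3 to 25.6), where both chains of its receptor were high. Il33 had 214, 49, 290 and 595 counts and was 4.46-fold lower with IL-17A (3.26 to 6.21), where its receptor Il1rl1 was 1.74-fold higher. Il24, a ligand of receptors containing Il20rb, had 2, 333, 46 and 40 counts, and was highest where Il20rb was lowest.

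Some further ligands that were higher with IL-17A had receptors that were lower or not called. Il1a had 246, 6135, 275 and 501 counts, while Il1r1 was 1.44-fold lower with IL-17A. Lif, which acts through Lifr and Il6st, was 2.29-fold higher with IL-17A (1.995 to 2.64), with Lifr at a ratio of 1.01 and Il6st 2.77-fold lower. Csf1 and Il34 were 2.93-fold and 3.23-fold higher, with Csf1r 1.999-fold lower. Tnf had 319, 1120, 230 and 382 counts, and was 3.44-fold higher (3.03 to 3.91), while its receptors Tnfrsf1a and Tnfrsf1b lay 1.48-fold lower and 1.20-fold higher, neither called. Not all pairs were opposed. Of the IL-36 genes, Il1f8 and Il1f9 were 3.16-fold and 2.49-fold lower with IL-17A, and the receptor Il1rl2 was 1.47-fold lower. Il1f5, which codes for the antagonist of that receptor, was 2.98-fold lower. Il1f6, another IL-36 gene, was 4.41-fold higher. The pairs were picked with values known, and they are levels of RNA side by side, with 1 library each.

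A list of 42 genes of receptor signalling and shedding held adaptors, kinases, STAT proteins, feedback inhibitors and the proteases Adam10 and Adam17. Of the 42, 39 were measured. With IL-17A in WT cells 3 were called higher and 3 lower, beside 8.97% and 10.7% of all genes. In Il17rc KO against IL-17A WT 1 was higher and 1 lower, beside 6.22% and 4.84%. In Il17rd KO against it 2 were higher and 2 lower, beside 6.27% and 3.73%. Between the knockouts 0 were called, beside 2.75% and 1.49%. Cflar, which codes for the caspase-8 inhibitor c-FLIP, had 701, 2125, 1075 and 959 counts and was 2.97-fold higher with IL-17A (2.73 to 3.24). The Toll-like receptor adaptors lay on both sides, with Tirap 2.18-fold higher and Ticam1, the adaptor of Tlr3, 2.70-fold lower. Jak3, the kinase bound by the common gamma chain, was 2.15-fold lower (1.62 to 2.88), opposite to Il2rg. Stat3, which gp130 activates, had 4808, 3003, 3771 and 4336 counts and was not called.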

How the data were processed

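RNA of 4 cultures was sequenced, 1 library per group. The submitters' processing notes name Trim Galore 0.4.4, HISAT2, featureCounts, Subread and edgeR with genome build mm10, without settings, annotation or strand mode. The authors deposited raw whole-number counts per gene, and each of the 13102 genes exceeds 1 CPM in at least 2 libraries. The deposited FPKM values, per the file headers, are levels per gene length, and their implied library sizes equal the TMM-scaled ones within 1% for all 9709 genes checked. They were used only to compare levels between genes.

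Counts were scaled here with TMM factors of edgeR 4.0.16 (0.963, 0.984, 1.01 and 1.04 for untreated, IL-17A WT, Il17rc KO, Il17rd KO). Log2 ratios use a prior count of 2. Counting intervals are exact (Clopper-Pearson for ratios, Poisson for levels) and take reads as independent, which reads without molecular identifiers are not. The calling rule was tested on simulated data with counting error only, the error its interval assumes. That test says nothing about the spread between cultures. Named are all receptor genes called in 1 of the first 3 comparisons, the 3 most abundant per family and those nearest the size limit. Of the called genes of the other lists only a part is named, so the naming there is not complete. Other genes were added to the text with values known. The receptor genes and lists were chosen with earlier results of these data known. Positions come from GENCODE M21 (GRCm38), and copies were sought with BLAST+ 2.17.0. Alternatives were DESeq2 1.42.0 size factors, library totals, other prior counts, filters, sizes and intervals.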

Additional observations from a re-analysis of the deposited data

Results flagged for a closer look

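For 2 receptor genes the knockouts lay on opposite sides of the IL-17A WT library with both 95% counting intervals excluding 1. Other genes, such as Il3ra and Cxcr4, also lay on opposite sides, but with at least 1 interval that included 1. Ackr3 was 2.48-fold lower in Il17rc KO (1.94 to 3.19) and 1.72-fold higher in Il17rd KO (1.46 to 2.04), and the ratio of Il17rd KO to Il17rc KO was 4.27. Tlr2 was 1.21-fold lower in Il17rc KO (1.06 to 1.38) and 1.54-fold higher in Il17rd KO (1.38 to 1.72), and the ratio between the knockouts was 1.87. With 1 library per group the difference was not tested.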

How the results depend on the processing

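No call changed direction under the alternatives in the 234 values of the 39 receptor genes, but none could have. Sizes, filters and intervals leave the ratio as it is, and the scaling factors differ too little to reverse a 2-fold ratio. DESeq2 size factors changed 0 of these calls. Leaving out the filter could change none, since all 39 genes already passed it. Scaling by library totals lost Il22ra1 with IL-17A in WT cells and Il20rb in Il17rc KO against untreated. It moved the median of Il17rd KO against untreated from -0.16 to -0.052 for the receptor genes and by 0.11 for all genes, and the share of higher genes among all calls there from 61.5% to 71.8%. A size of 3-fold left 1 higher and 6 lower with IL-17A in WT cells (2-fold: 6 and 10), 1 and 4 in Il17rc KO against IL-17A WT (6 and 9), 1 and 3 in Il17rd KO against it (6 and 6), 1 higher in Il17rd KO over Il17rc KO (6), 0 higher in Il17rc KO and 0 in Il17rd KO against untreated (1 each), and 0 lower in Il17rd KO against untreated (4). A size of 1.5-fold gave 14 lower in Il17rc KO against IL-17A WT, 11 higher in Il17rd KO against it, 3 higher and 14 lower in Il17rc KO against untreated (1 and 8), and 10 lower in Il17rd KO against untreated. A filter of 5 CPM removes low genes from the test and left 2 higher in Il17rd KO over Il17rc KO, 0 higher and 4 lower in Il17rc KO against untreated, and 0 higher and 2 lower in Il17rd KO against it. The same filter left 6 lower in Il17rc KO against IL-17A WT (9 before) and 6 lower in Il17rd KO against it (6 before). Calling 2-fold on the log2 ratio with its prior count, chosen after seeing the data, lost Il22ra1 with IL-17A in WT cells and Tlr3 in Il17rd KO against untreated, which left 0 higher there. The 99% interval lost Tnfrsf1b and Tnfrsf11a between the knockouts. Shares of all genes called were not computed for the other sizes, filters and intervals, so these counts have no such value beside them. No paired analysis was possible because each group has 1 library. Genes with fewer than 50 counts in a library are limited by depth, as their intervals show.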
